A study of Mus musculus with 14 samples.

Results

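This report describes 10 genes of cardiac wall stress and of the atrium, taken by symbol from a table of 54532 mouse genes: Nppa, Nppb, Ankrd1, Ankrd2, Acta1, Xirp1, Csrp3, Fhl1, Myl4 and Myl7. The genes were taken by name, with earlier results of these data known, including that Nppa, Myl4 and Myl7 were high in IRR_6w replicate 1 and IRR_1d replicate 3. Bulk RNA was sequenced from the hearts of 14 male wild-type C57BL/6J mice, 1 library per mouse, and the question was how radiation changes heart transcripts early and late. All mice were 8 weeks old at irradiation. The irradiated mice received 30 Gy of 60Co γ-rays to the front of the chest under pentobarbital anesthesia, with the rest of the body behind lead, and hearts were taken after 1 day (IRR_1d, n = 3) or after 6 weeks (IRR_6w, n = 4). Unirradiated mice of the same strain and age were taken at the same times (Control_1d, n = 3, and Control_6w, n = 4). No allele or agent other than the radiation separates the groups by the labels, which do not say whether the controls were anesthetized. The dissection is described only as heart tissue, with no chamber named.

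A stretched or overloaded ventricle returns to part of its fetal program. Cardiomyocytes then make more of the natriuretic peptides ANP (Nppa) and BNP (Nppb), which lower blood volume and pressure, of skeletal α-actin (Acta1), and of proteins that sit at the Z-disc or in the nucleus and respond to strain. Nppa is also made constantly by atrial cardiomyocytes of a healthy adult, together with the atrial myosin light chains Myl4 (essential) and Myl7 (regulatory), while Myl2 and Myl3 are the light chains of the ventricle. A high Nppa level in a piece of heart can therefore accompany ventricular stress or atrial tissue in the sample, and the light chains give the second measure needed to tell which one it goes with. Bulk values do not separate fewer cells of a type from less RNA per cell.

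Promoters are shown for 4 members, 3 stress genes and 1 atrial gene. These 4 are also the ones with an M-CAT match, so they do not stand for all members. The sequences are from RefSeq on GRCm38.p6 (mm10) and are 300 bases long, reaching 50 bases past the start site, 5′ to 3′ on the gene's strand. Of the 10 members, 9 were matched and Xirp1 had no entry. Of 5 motifs searched on both strands, capitals mark 3: the M-CAT element, CATTCC, which TEAD factors bind, a form of the GATA site, AGATAA, and the CArG box of serum response factor. A match on the other strand appears as the reverse complement. No marked match overlaps another.
Ankrd1 (chr19:36119795-36120094, minus strand): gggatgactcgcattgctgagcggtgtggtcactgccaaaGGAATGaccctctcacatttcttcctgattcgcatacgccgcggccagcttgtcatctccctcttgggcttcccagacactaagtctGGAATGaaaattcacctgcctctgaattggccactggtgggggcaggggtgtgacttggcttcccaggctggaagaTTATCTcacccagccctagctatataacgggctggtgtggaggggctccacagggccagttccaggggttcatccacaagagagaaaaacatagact
Nppb (chr4:147985650-147985949, plus strand): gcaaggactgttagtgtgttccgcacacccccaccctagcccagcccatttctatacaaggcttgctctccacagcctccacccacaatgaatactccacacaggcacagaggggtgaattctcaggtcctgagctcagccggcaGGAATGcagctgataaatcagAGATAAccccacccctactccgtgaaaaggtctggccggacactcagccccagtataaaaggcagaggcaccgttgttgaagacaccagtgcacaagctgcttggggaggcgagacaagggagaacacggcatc
Acta1 (chr8:123894726-123895025, minus strand): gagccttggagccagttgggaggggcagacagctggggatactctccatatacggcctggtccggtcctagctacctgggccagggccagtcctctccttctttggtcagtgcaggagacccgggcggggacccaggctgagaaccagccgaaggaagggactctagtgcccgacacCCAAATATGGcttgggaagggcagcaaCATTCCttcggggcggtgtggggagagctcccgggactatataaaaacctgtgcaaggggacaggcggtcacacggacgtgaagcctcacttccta
Myl7 (chr11:5898733-5899032, minus strand): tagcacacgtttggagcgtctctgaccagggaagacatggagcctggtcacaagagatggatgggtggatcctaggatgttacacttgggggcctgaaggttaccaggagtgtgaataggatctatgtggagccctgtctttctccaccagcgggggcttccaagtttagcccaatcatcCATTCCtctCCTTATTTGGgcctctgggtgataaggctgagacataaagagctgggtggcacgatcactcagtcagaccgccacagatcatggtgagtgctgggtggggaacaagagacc
With the start site as base 0, Ankrd1 held M-CAT matches at -210 to -205 and -123 to -118 and a GATA match at -47 to -42. Nppb held an M-CAT match at -105 to -100 and a GATA match at -84 to -79. Acta1 held a CArG box at -73 to -64 and an M-CAT match at -46 to -41, and Myl7 held M-CAT at -70 to -65 and a CArG box at -61 to -52. M-CAT was present in these 4 of the 9 matched promoters and in 14.6% of the 32544 mouse promoters in the table. The GATA form was in 2 of 9 (Ankrd1 and Nppb) and in 11.2% of all promoters. The CArG box was in 3 of 9 (Acta1, Myl7 and Fhl1) and in 1.64% of all. MEF2, not marked, was in 0 of 9 and in 3.16% of all, and the TATA box, TATAAA, also not marked, was in 5 of 9 (Nppa, Nppb, Acta1, Ankrd2 and Fhl1) and in 13.6% of all. The Nppa promoter held none of the 3 marked motifs. The Fhl1 entry starts 47896 bases from the gene's deposited start, and the Nppb entry starts 112 bases from it. These matches describe letters only.

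On mm10 the stress genes are Ankrd1 (chr19:36111965-36119844), Ankrd2 (chr19:42036038-42045110), Acta1 (chr8:123891769-123894751), Xirp1 (chr9:120013755-120023598), Csrp3 (chr7:48830398-48848033) and Fhl1 (chrX:56731787-56793346). The atrial light chains are Myl4 (chr11:104550663-104595753) and Myl7 (chr11:5896637-5898782). The natriuretic peptide genes are neighbours. Nppb (chr4:147985788-147987205) ends 13516 bases before Nppa (chr4:148000722-148002079) on the same strand. Of the exonic bases of Nppa, 61.5% also lie in exons of the antisense gene Gm13054, whose own counts were 0 to 92 per library, highest in the IRR_6w library with the highest Nppa, and the strand setting of the counting is not known, so reads of the pair may not be separable. Stretches of 150 bases of the members' transcripts had no exact copy in any other gene.

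Libraries held 13336746 to 16837265 counts, and between 10.4% and 44.2% of counts were mitochondrial. Levels below are CPM, each gene's share of a library's counts on the usual per-million scale, after scaling by the trimmed mean of M-values. A count of 3, the limit that a count of 0 allows, correspond to 0.178 to 0.225 unscaled CPM. This limit covers counting error only and is too low for Control_1d replicate 1 and IRR_6w replicates 3 and 4, where 29.6%, 20.4% and 8.01% of genes with a median of 2 to 5 CPM were at 0.

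By tissue markers 3 libraries stood apart, and results are given with and without them. In IRR_6w replicate 1 the 6 ventricular genes summed to 39.8 CPM, with Myl2 at 5.69 and Myl3 at 21.6 CPM, whereas in the other 13 libraries this sum was 797 to 11202 CPM. The same library had 4797 CPM of 12 atrial genes outside the members, 426 CPM of lung epithelial genes (the next library had 29.5), 960 CPM of brown fat genes and 1105 CPM of white fat genes. IRR_1d replicate 3 had 4197 CPM of the atrial genes, 1662 CPM of smooth muscle genes (the next library had 423) and 300 CPM of brown fat genes. Control_6w replicate 3 had 3524 CPM of thymus genes, with 51.5 in the next highest one, 699 CPM of brown fat genes, and the lowest cardiomyocyte sum, 4663 CPM. The sum of 9 cardiomyocyte genes was 8694 CPM in IRR_6w replicate 1 and 14992 to 39841 CPM in the other 12 libraries, IRR_1d replicate 3 among them at 15607 CPM.

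**Figure D1:**
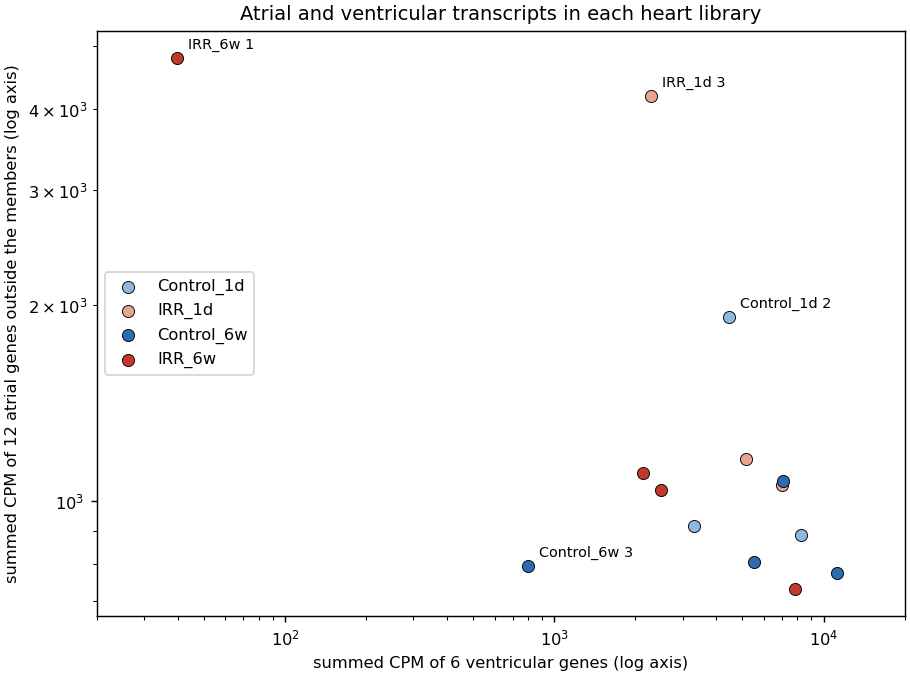
Each point is 1 heart library, with the summed CPM of 6 ventricular genes on the horizontal log axis and of 12 atrial genes that are not members on the vertical log axis, coloured by group. IRR_6w replicate 1 lies at 39.8 CPM of ventricular genes and 4797 CPM of atrial genes, and Control_6w replicate 3 is next lowest at 797 CPM of ventricular genes.

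No member was called as changed by irradiation at either time. Genes were called in edgeR's quasi-likelihood test over 16034 genes where the fold exceeded 2, or lay under 0.5, and p stayed under 0.05 after Benjamini-Hochberg adjustment. At 1 day 0 of 9 tested members were called, where 0.0249% of all genes were, and 0 had the fold with an unadjusted p under 0.05, where 2.23% of all genes did. At 6 weeks 0 of 9 were called (0.256% of all genes), and 1, Ankrd1, had the fold with an unadjusted p under 0.05 (5.43% of all genes). The tenth member, Ankrd2, a skeletal muscle relative of Ankrd1, had 0 to 9 counts per library and was not tested. DESeq2 run on the same libraries called 0 members at 1 day (0.187% of all genes) and 1, Ankrd1, at 6 weeks (2.05% of all genes). The median log2 difference of the 9 members at 6 weeks was 0.67, with 8 higher and 1 lower, beside -0.09 over all genes tested. Nppa, Myl4 and Myl7 are among the 8 and were chosen with their high level in IRR_6w replicate 1 known. Without the 3 libraries that stood apart the median was 0.13, with 5 higher and 4 lower (Nppa, Myl4, Myl7 and Csrp3), beside -0.05 over all genes. At 1 day it was 0.26, with 6 higher and 3 lower, beside 0.06 over all genes. Without the 3 libraries the 1-day median turned to -0.94, with 2 higher (Fhl1 and Xirp1) and 7 lower, beside 0.04 over all genes.

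**Figure D2:**
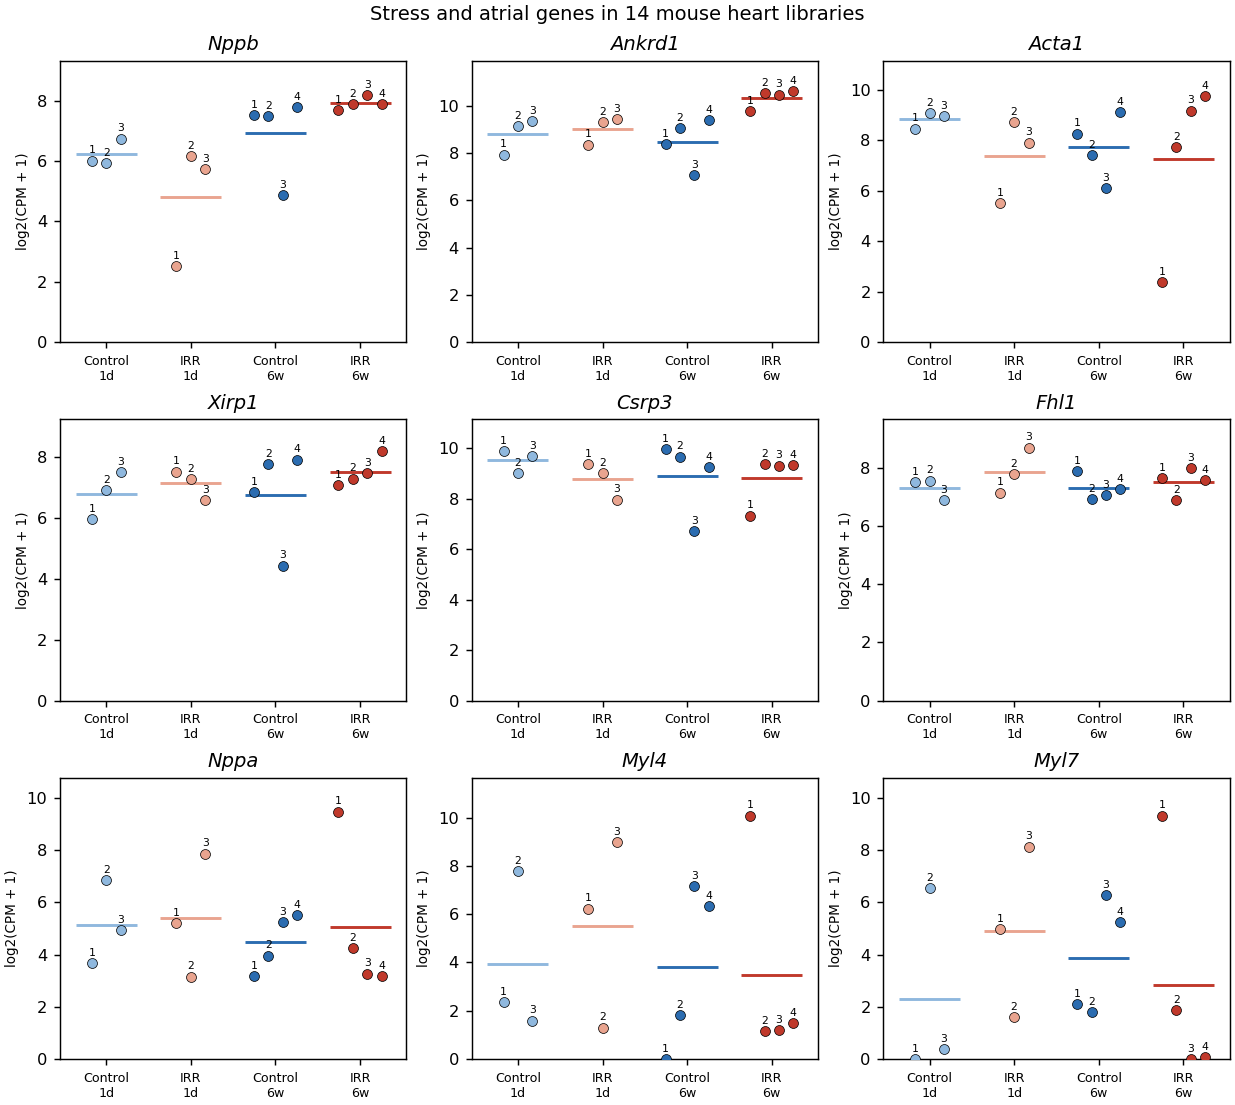
Expression of the 9 tested members as log2(CPM + 1) in each of 14 libraries, by group, with the replicate number above each point and a bar at the mean of the log values. Ankrd1 is the gene whose IRR_6w libraries, 874 to 1597 CPM, all lie above the Control_6w libraries, while IRR_6w replicate 1 stands far above its group in Nppa, Myl4 and Myl7 and below it in Acta1.

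Ankrd1 encodes CARP, an ankyrin repeat protein that binds titin in the sarcomere and also enters the nucleus. Its level was 336, 529, 135 and 671 CPM in the Control_6w libraries and 874, 1487, 1430 and 1597 CPM in the IRR_6w libraries, replicates 1 to 4. The groups did not overlap, and the lowest irradiated heart was IRR_6w replicate 1. Ankrd1 was the 1 member of 9 without overlap, where 5.72% of all genes tested did not overlap. The mean was 1347 ± 323 CPM against 418 ± 233 CPM (SD, n = 4 each), a log2 difference of 1.69 ± 0.46 (SE), and edgeR's unadjusted p of 0.0025 became 0.17 after adjustment over all genes. Without the 3 libraries that stood apart the log2 difference was 1.55 with an adjusted p of 0.090. DESeq2 gave 1.70 with an adjusted p of 0.0065 on all 14 libraries and 1.68 with 0.012 on the 6-week libraries alone. Over all alternatives the log2 difference lay between 1.40 and 2.29 and the adjusted p between 0.0065 and 0.61. The 3 alternatives that called it were both DESeq2 fits and edgeR with scaling to cardiomyocyte genes without the 3 libraries. All 9 cardiomyocyte genes were lower in the IRR_6w group, with a median log2 difference of -0.52 beside -0.09 over all genes. Of them 0 of 9 were called, where 0.256% of all genes were, and the part of cardiomyocyte content in the Ankrd1 difference was not tested. The mitochondrial share of counts also separated these groups, with 26.9%, 25.5%, 22.3% and 30.3% in Control_6w and 13.9%, 22.2%, 16.7% and 10.4% in IRR_6w, and its part in the differences of Ankrd1 and Nppb was not tested. Ankrd1 relative to the cardiomyocyte genes is given further on.

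At 1 day the Ankrd1 groups overlapped, with 245, 566 and 651 CPM in Control_1d and 328, 639 and 690 CPM in IRR_1d. Here the log2 difference was 0.18 ± 0.52 (SE). Between the times, the irradiated hearts differed without overlap, as did 9.31% of all genes tested, by a log2 difference of 1.29 (edgeR adjusted p = 0.77), while the control hearts differed by -0.22 (adjusted p = 0.96). The change in the irradiation effect from 1 day to 6 weeks was 1.51 ± 0.69 (SE), with an unadjusted p of 0.046 and an adjusted p of 0.99 in edgeR. In that contrast 0 of 9 members were called, with 0% of all genes called, and Ankrd1 was the 1 member with the fold and an unadjusted p under 0.05, where 2.86% of all genes had both. DESeq2 on all libraries also called no member for that contrast, and 0.231% of all genes.

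Nppb encodes B-type natriuretic peptide, made by strained ventricular cardiomyocytes and used in the clinic as a marker of heart failure. Its level was 63.5, 60.5 and 106 CPM in Control_1d and 4.70, 70.8 and 51.9 CPM in IRR_1d. It was 183, 179, 28.4 and 219 CPM in Control_6w and 204, 236, 289 and 238 CPM in IRR_6w. The IRR_6w group had the highest mean of the 4 groups, 242 ± 35.3 CPM (SD, n = 4), and it overlapped the control range only through Control_6w replicate 4. IRR_1d replicate 1 was the lowest of all 14 libraries, and Control_6w replicate 3, the library with thymus genes, was the lowest at 6 weeks. Irradiated hearts differed from controls by a log2 value of -0.86 ± 0.73 (SE) at 1 day and 0.67 ± 0.63 at 6 weeks, with edgeR adjusted p of 1.0 and 0.82. Without the 3 libraries that stood apart, the values were -1.03 and 0.39.

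The larger Nppb difference lay between the times. As for Ankrd1, IRR_6w libraries did not overlap IRR_1d libraries (2 of 9 members, 9.31% of all genes) and were higher by 2.51 ± 0.75 (SE) on the log2 scale, with an unadjusted p of 0.0044 and an adjusted p of 0.53 in edgeR, and adjusted p of 0.018 in DESeq2 on all libraries. The mitochondrial share, 29.4%, 40.2% and 28.1% in IRR_1d, lay above all IRR_6w libraries (at most 22.2%), and its part in the Ankrd1 and Nppb differences between these groups was not tested. With the 3 libraries left out it was 2.75 with an edgeR adjusted p of 0.17. Control hearts at 6 weeks were also higher than at 1 day, by 0.99 ± 0.70 (adjusted p = 0.91), and the change in the irradiation effect was 1.52 ± 0.97 (adjusted p = 0.99). Mice of the later groups were also older, so age and time after the procedure cannot be told apart within these comparisons. Among members, 0 of 9 were called between IRR_6w and IRR_1d (0.0374% of all genes), and 2, Ankrd1 and Nppb, had the fold with an unadjusted p under 0.05 (3.85% of all genes). Between the control groups 0 of 9 were called (0% of all genes) and 0 had the fold with an unadjusted p under 0.05 (3.75% of all genes). DESeq2 on all libraries called 0 members between the control groups (0.162% of all genes) and 1, Nppb, between the irradiated groups (0.873% of all genes).

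Since the cardiomyocyte content of the libraries differed, counts of each member were also set against 1000 counts of 9 cardiomyocyte genes in the same library, a scaling chosen after the data were seen. On this scale Ankrd1 was 16.0, 14.2, 28.9 and 20.2 in Control_6w and 101, 56.9, 95.4 and 94.6 in IRR_6w. The means of 19.9 ± 6.5 and 86.9 ± 20.1 (SD, n = 4 each) differed by 4.43-fold on the log scale, with no overlap. Nppb was 8.73, 4.81, 6.10 and 6.59 in Control_6w and 23.5, 9.03, 19.3 and 14.1 in IRR_6w, a 2.42-fold difference, also with no overlap. They were 2 of 9 members without overlap on this scale, where 1.3% of all genes tested did not overlap. For both genes the 2-sided exact permutation p was 0.029, the smallest that 4 against 4 can give, unadjusted for the 9 members tested. The edgeR fit with this scaling called neither, with adjusted p over all genes of 0.60 for Ankrd1 (log2 difference 2.13) and 0.998 for Nppb (1.33). Xirp1 was 5.44, 5.75, 4.39 and 7.16 against 15.4, 5.91, 11.7 and 17.3, a 2.08-fold difference with overlap through IRR_6w replicate 2 (exact permutation p = 0.057). The cardiomyocyte genes in the denominator were lower in IRR_6w, without passing the test, so these ratios hold both differences.

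**Figure D3:**
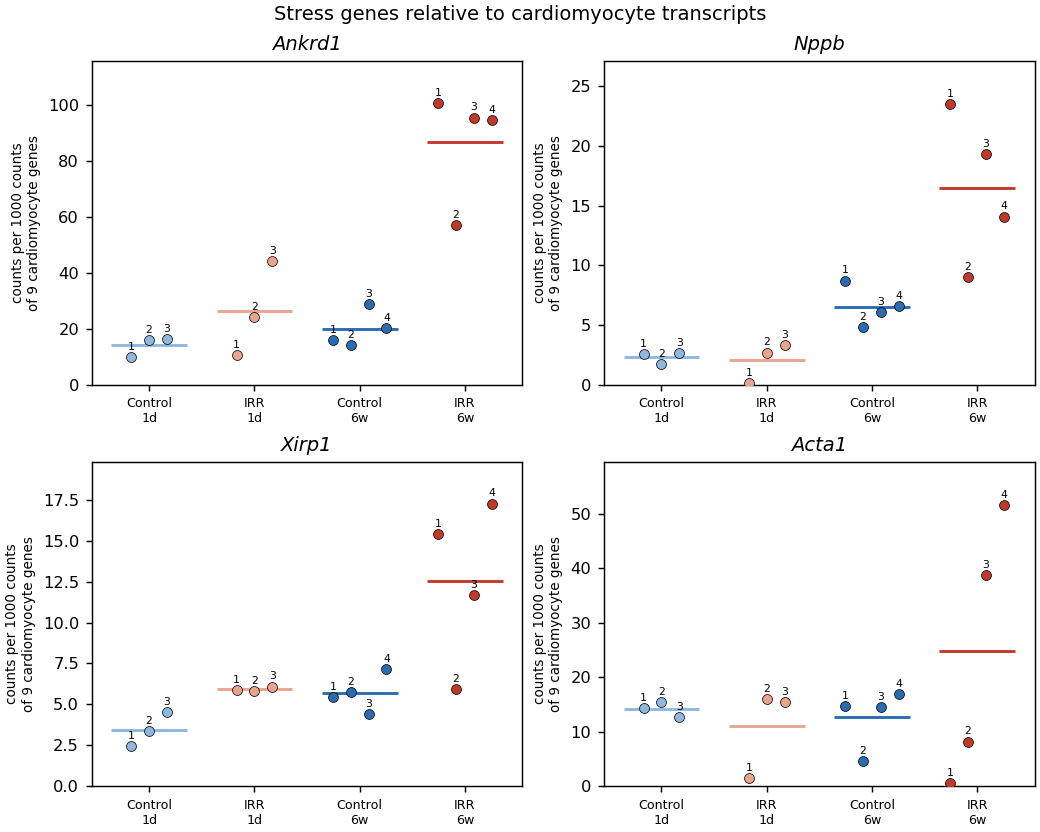
Counts of Ankrd1, Nppb, Xirp1 and Acta1 per 1000 counts of 9 cardiomyocyte genes in each library, by group, with replicate numbers and a bar at the group mean. Ankrd1 is at 56.9 to 101 in IRR_6w and 14.2 to 28.9 in Control_6w, and Nppb at 9.03 to 23.5 and 4.81 to 8.73, while Acta1 spans 0.490 to 51.5 within IRR_6w.

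At 1 day the same scale gave no difference that 3 against 3 libraries could carry past 0.05, since the smallest exact permutation p is 0.10. Xirp1 was 2.45, 3.34 and 4.52 in Control_1d and 5.85, 5.81 and 6.08 in IRR_1d, without overlap and at that smallest p, 1 of 9 members where 24.5% of all genes tested did not overlap. Nppb was 2.56, 1.71 and 2.67 against 0.152, 2.69 and 3.32, and Ankrd1 9.89, 16.0 and 16.4 against 10.6, 24.3 and 44.2, both with overlap. Without the scaling, 0 of 9 members had groups that did not overlap at 1 day, where 10.7% of all genes did not overlap.

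Acta1, the skeletal α-actin of the fetal and stressed heart, had the widest range among the stress genes as a fold between its lowest and highest library. It was 354, 543 and 503 CPM in Control_1d and 44.7, 421 and 240 CPM in IRR_1d. At 6 weeks it was 307, 170, 67.8 and 559 CPM in Control_6w and 4.26, 213, 581 and 870 CPM in IRR_6w, so the irradiated group held both the lowest and the highest library of the series. The low value belonged to IRR_6w replicate 1, where Myl2 and Myl3 were also the lowest of the series. Log2 differences were -0.99 ± 1.14 (SE) at 1 day and 0.60 ± 0.98 at 6 weeks (edgeR adjusted p 1.0 and 0.90). The 6-week value turned to -0.05 without IRR_6w replicate 4 and to -0.54 in limma-voom. In IRR_1d replicate 1 both Acta1 and Nppb were the lowest of the 1-day libraries, while its cardiomyocyte sum, 31012 CPM, lay within the range of the controls.

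Xirp1 encodes Xin, an actin-binding protein of the intercalated disc. Its level was 60.7, 118 and 180 CPM in Control_1d, 181, 153 and 94.8 CPM in IRR_1d, 114, 213, 20.5 and 238 CPM in Control_6w and 134, 155, 175 and 291 CPM in IRR_6w. The low value was again Control_6w replicate 3. The log2 differences were 0.26 ± 0.64 and 0.37 ± 0.55 (SE) at 1 day and 6 weeks.

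Csrp3 encodes muscle LIM protein, a Z-disc protein whose loss causes dilated cardiomyopathy. It measured 934, 512 and 828 CPM in Control_1d and 662, 513 and 248 CPM in IRR_1d. At 6 weeks it measured 994, 809, 103 and 609 CPM in Control_6w and 160, 654, 633 and 637 CPM in IRR_6w. The lowest library of 3 groups was one of those that stood apart, and the remaining 3 IRR_6w libraries lay between 633 and 654 CPM. Csrp3 was the 1 member lower at 6 weeks, by a log2 value of -0.27 ± 0.57 (SE), which turned positive (0.02) under scaling to library totals.

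Fhl1, a LIM-domain protein of the titin spring region, measured 180, 189 and 117 CPM in Control_1d and 141, 219 and 414 CPM in IRR_1d. It measured 236, 122, 134 and 154 CPM in Control_6w and 200, 119, 254 and 191 CPM in IRR_6w. Its highest value belonged to IRR_1d replicate 3, the library with smooth muscle genes, and without the 3 libraries the 1-day log2 difference went from 0.67 ± 0.40 (SE) to 0.15 ± 0.37. At 6 weeks the log2 difference was 0.24 ± 0.35.

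Compared per kilobase of the deposited gene length, the median level in Control_6w was 265 CPM per kb for Csrp3, 245 for Ankrd1, 231 for Nppb, 155 for Acta1, 38.7 for Fhl1 and 28.0 for Xirp1. The ranges of the first 4 overlapped. In IRR_6w the order was Ankrd1 at 827, Nppb at 303, Acta1 at 259 and Csrp3 at 238 CPM per kb, and the Ankrd1 range of 495 to 905 lay above that of Nppb, 261 to 370, and overlapped that of Acta1, 2.77 to 566. The deposited length of Csrp3 is 2671 bases and that of its longest coding transcript in GENCODE M21 is 899, so its level per length may be understated, and the same holds for Myl4 (4637 and 943 bases).

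Nppa, the atrial natriuretic peptide gene, was 11.8, 114 and 29.5 CPM in Control_1d and 35.9, 7.90 and 233 CPM in IRR_1d. It was 8.07, 14.5, 36.6 and 44.9 CPM in Control_6w and 713, 18.2, 8.65 and 8.03 CPM in IRR_6w. The IRR_6w group held 1 very high library, and its other 3 lay within the range of the controls or just below it. The 6-week log2 difference was 2.84 ± 1.41 (SE) with an edgeR adjusted p of 0.60, and it turned to -1.16 when IRR_6w replicate 1 alone was left out. The 1-day difference, 0.84 ± 1.53, turned to -1.23 without IRR_1d replicate 3. Each direction thus rested on 1 library.

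The atrial light chains had the same libraries high. Myl7 was 0, 93.2 and 0.308 CPM in Control_1d, 30.3, 2.06 and 281 CPM in IRR_1d, 3.27, 2.45, 76.7 and 37.3 CPM in Control_6w and 644, 2.65, 0 and 0.0475 CPM in IRR_6w. Myl4 was 4.14, 222 and 2.0 CPM in Control_1d, 74.3, 1.46 and 508 CPM in IRR_1d, 0, 2.53, 141 and 79.1 CPM in Control_6w and 1089, 1.20, 1.27 and 1.81 CPM in IRR_6w. Both genes were either above 20 CPM or under 5 CPM in every library. The 6 high libraries were 1 of 3 in Control_1d, 2 of 3 in IRR_1d, 2 of 4 in Control_6w and 1 of 4 in IRR_6w, so high and low libraries occurred in all groups. Log2 differences were 1.75 and 1.36 at 1 day and 2.43 and 2.29 at 6 weeks for Myl7 and Myl4, with SE from 2.26 to 2.59, and without the 3 libraries that stood apart they were -0.94, -0.998, -4.01 and -4.24. The -4.01 of Myl7 rests on IRR_6w replicates 2, 3 and 4 with 44, 0 and 1 counts, and replicates 3 and 4 are among the libraries with many genes at 0.

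Sln and Mybphl, named after their values were seen among 12 atrial genes outside the members, split the libraries in the same way. Sln (sarcolipin, the calcium pump inhibitor of the atrium) was at 20.4 CPM or more in the 6 libraries and at most 0.685 CPM in the other 8. Mybphl, an atrial myosin-binding protein, was at 5.35 CPM or more in them and at most 0.241 CPM in the others. Nppa was also highest in these 6, from 35.9 CPM up, but the next library followed closely at 29.5 CPM. Nppb was not high in these 6, with 4.70, 28.4, 51.9, 60.5, 204 and 219 CPM, beside 63.5 to 289 CPM in the other 8. At 1 day it was 4.70, 51.9 and 60.5 CPM in the libraries with atrial genes and 63.5, 70.8 and 106 CPM in the others. Not every atrial gene split so. Dkk3 was 18.7 CPM in its sixth-ranked library and 17.7 CPM in the next, and the sum of the 12 genes was higher in IRR_1d replicate 2, a library low in Myl7, at 1159 CPM, than in Control_6w replicate 4, at 1071 CPM. The libraries highest in Myl7 differed in Bmp10, a factor of the right atrium, which measured 777 CPM in IRR_1d replicate 3 and 18.9 CPM in IRR_6w replicate 1.

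**Figure D4:**
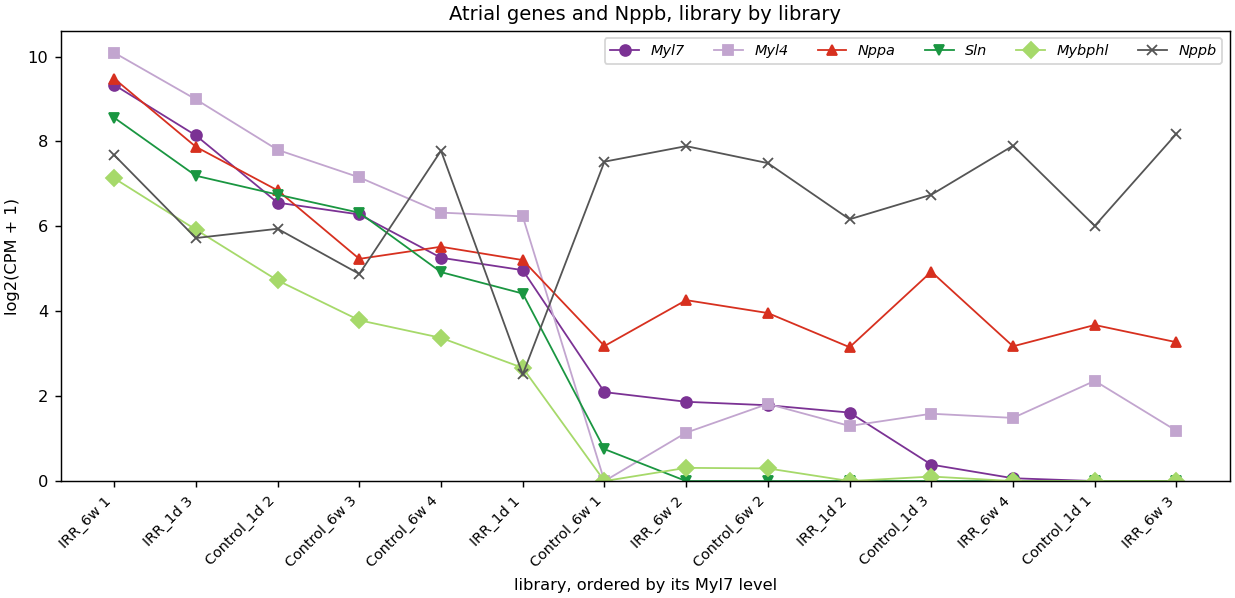
Expression of Myl7, Myl4, Nppa, Sln, Mybphl and Nppb as log2(CPM + 1) in the 14 libraries, ordered from left to right by Myl7. The first 6 libraries carry all 5 atrial genes, after which Myl7, Myl4, Sln and Mybphl drop to near 0, Nppa levels off between 7.90 and 29.5 CPM and Nppb does not follow.

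The count ratio of Nppa to Myl7, with 1 added to each count, gives Nppa relative to atrial tissue. In the 6 libraries with atrial genes it was 0.478 to 1.22, with 1.11 in IRR_6w replicate 1 and 0.830 in IRR_1d replicate 3. In the other 8 it was 2.43 to 189. Of these 8, 4 libraries had 24 to 44 counts of Myl7 and ratios of 2.43 to 6.73, and 4 had 0 to 4 counts and ratios of 76.8 to 189, which turn on the added count. Of those 4, Control_1d replicate 1 and IRR_6w replicates 3 and 4 are the libraries with many genes at 0, and the part of those zeros was not tested. The 713 CPM of Nppa in IRR_6w replicate 1 came with about as many counts of Myl7, as in the unirradiated Control_1d replicate 2 and Control_6w replicate 4 (1.22 and 1.20). Both genes were chosen with their high level in IRR_6w replicate 1 and IRR_1d replicate 3 known, so the ratios there are a description only. In the 8 libraries with low atrial genes, Nppa was 11.8 and 29.5 CPM in Control_1d, 7.90 in IRR_1d, 8.07 and 14.5 in Control_6w and 18.2, 8.65 and 8.03 in IRR_6w, and the 6-week values overlapped. Planned tests of irradiated against control hearts gave, for Nppa to Myl7, exact permutation p of 0.20 at 1 day and 0.14 at 6 weeks. By the same test, p was 0.30 and 0.23 for Ankrd1 to Myl7 and 0.50 and 0.74 for Nppb to Nppa.

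**Figure D5:**
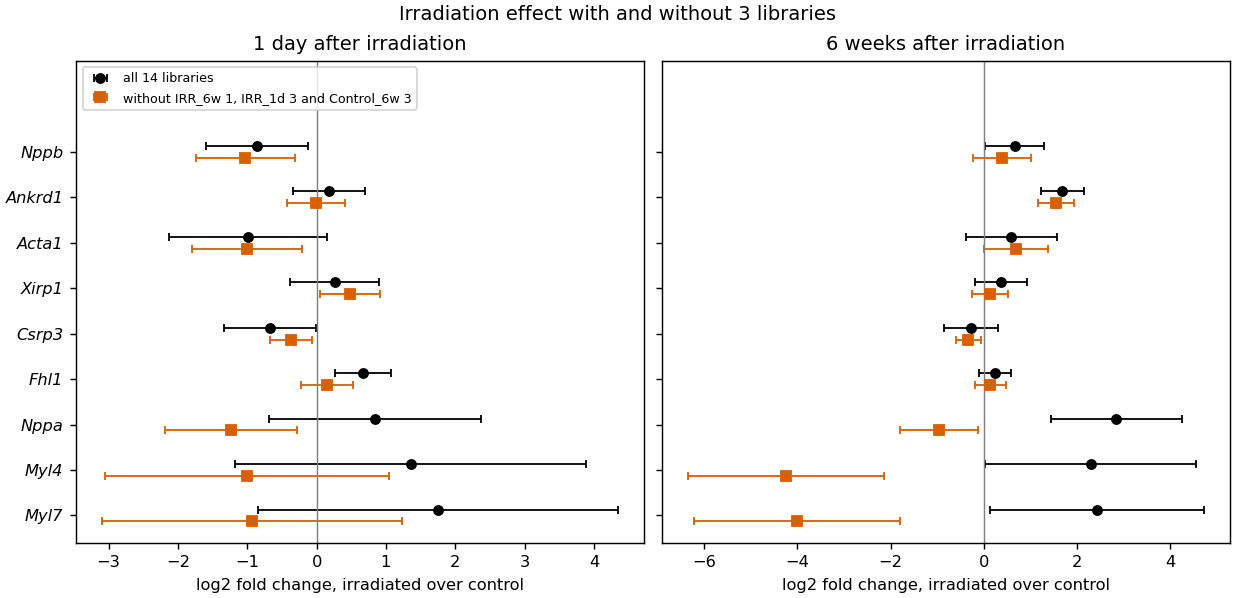
Log2 fold change of irradiated over control hearts for the 9 tested members from edgeR at 1 day and 6 weeks, with bars of 1 SE, using all 14 libraries (circles) and leaving out IRR_6w 1, IRR_1d 3 and Control_6w 3 (squares). Ankrd1 stays at 1.69 and 1.55 at 6 weeks, whereas Nppa goes from 2.84 to -0.96 and Myl7 from 2.43 to -4.01.

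The members were also ranked over the 14 libraries. Nppa, Myl4 and Myl7 were chosen with their high level in IRR_6w replicate 1 and IRR_1d replicate 3 known, so part of their likeness was given beforehand. Spearman's rho was 0.86 between Nppa and Myl4, 0.83 between Nppa and Myl7 and 0.72 between Myl4 and Myl7. It was 0.75 between Nppb and Ankrd1, and -0.36, -0.52 and -0.40 between Nppb and Nppa, Myl4 and Myl7. Csrp3 had -0.55, -0.64 and -0.63 with Nppa, Myl4 and Myl7. The points share their tissue content and group, so these are descriptions. Of all genes tested, those ranked most like Nppa were Mybphl (0.96), Rxfp1 (0.96) and Tmem163 (0.96), and those most like Myl7 were Sln (0.94), 6530409C15Rik (0.93) and Fgf12 (0.93). Among those most like Ankrd1 were Nhsl2 and B4galt5 (both 0.95), and among those most like Nppb were Ccnd1 (0.93) and Mall (0.91). Each member was also set against the summed atrial genes outside the members, with IRR_6w replicate 1 and IRR_1d replicate 3 left out. Over the other 12 libraries rho was -0.014 for Nppa, 0.053 for Myl7 and 0.31 for Myl4. For the remaining members it ran from -0.44 (Csrp3) to 0.59 (Acta1).

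Beside the members, 29 other genes of hypertrophy and wall stress were measured. At 6 weeks 21 were higher and 8 lower in irradiated hearts (median log2 difference 0.39, beside -0.09 over all genes, and 0.13 beside -0.05 without the 3 libraries that stood apart), 0 were called by edgeR (0.256% of all genes), and 6 were higher with the fold and an unadjusted p under 0.05 (5.43% of all genes in either direction). Gdf15, a stress cytokine, was 0.456 to 2.06 CPM and 8.86 to 25.4 CPM, a log2 difference of 3.72 (adjusted p = 0.070). Postn, the matrix protein of activated fibroblasts, was 43.5 to 119 CPM and 177 to 695 CPM, a log2 difference of 2.48 (adjusted p = 0.12). Neither overlapped between the groups, as held for 5.72% of all genes. Of 6 fibroblast genes 5 were higher at 6 weeks and 3 of them had the fold and an unadjusted p under 0.05 (5.43% of all genes). Their sum was 927 to 2178 CPM in Control_6w and 2324 to 3297 CPM in IRR_6w, and the part of fibroblast content in Postn was not tested. Without the 3 libraries that stood apart, 3 of the 29 genes were called, Postn and Tnc among them, where 1.13% of all genes were. With all libraries Tnc differed by 2.14 (edgeR adjusted p = 0.54), with overlapping groups.

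At 1 day 16 of the 29 were higher and 13 lower (median 0.04), with 0 called (0.0249% of all genes) and 1, Gdf15, with the fold and an unadjusted p under 0.05 (2.23% of all genes). Gdf15 was 0, 0.906 and 1.16 CPM in Control_1d and 12.8, 9.27 and 14.5 CPM in IRR_1d, without overlap (10.7% of all genes), with a log2 difference of 4.16 and an edgeR adjusted p of 0.55. It was 1 of 4 genes of this list without overlap, and the other 3, Actc1 (-0.89), Rcan1 (-0.38) and Nmrk2 (-0.38), were lower. Postn (1.12) and Cyr61 (0.92) had the next smallest p, with overlapping groups. Postn was 93.1, 86.7 and 539 CPM in IRR_1d, the high value in replicate 3, and 84.1 to 130 CPM in Control_1d. All 6 fibroblast and all 4 smooth muscle genes were also higher at 1 day, and their part in Postn was not tested. Timp1 (1.80), Lgals3 (1.70) and Spp1 (1.22) had larger log2 differences than Postn.

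Of 17 partners of the Z-disc and costamere, 5 were higher and 12 lower at 6 weeks (median log2 difference -0.13, near the -0.09 of all genes tested). At 1 day 4 were higher and 13 lower (median -0.37, beside 0.06 over all genes). None was called by edgeR (0.0249% of all genes at 1 day and 0.256% at 6 weeks). At either time 0 had an unadjusted p under 0.05, where 2.23% and 5.43% of all genes had it together with the fold. Cardiomyocyte genes were lower too, 7 of 9 at 1 day and 9 of 9 at 6 weeks, and under scaling to them the median of the Z-disc list was 0.09 at 1 day and 0.23 at 6 weeks, beside 0.60 and -0.22 over all genes. At 1 day the list lay below all genes on both scales. The scaling moves all genes of a library alike, so the second scale is no separate support. Actn2 is in both lists, and the part of cardiomyocyte content in the 1-day values was not tested. Titin (Ttn), the giant spring of the sarcomere, was 3169 ± 480 CPM in Control_1d and 1833 ± 772 CPM in IRR_1d (SD, n = 3 each) without overlap, a log2 difference of -0.79 (adjusted p = 1.0). It was 1 of 5 genes of this list without overlap at 1 day, all lower, with Fhl2, Ldb3, Myoz2 and Fbxo32, where 10.7% of all genes did not overlap. Xirp2, the relative of Xirp1, differed by -0.58, and Pdlim3, a Z-disc PDZ-LIM protein, by 1.12 at 1 day and 0.81 at 6 weeks. Tcap, the titin cap, differed by 1.02 and Synpo2 by -0.47 at 6 weeks. Skeletal muscle genes, of a tissue that also makes Acta1 and Ankrd2, summed to 14.7 to 112 CPM over 11 genes and so were low in every library.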

How the data were processed

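Total RNA of 14 hearts was sequenced on an Illumina platform with 150-base paired reads. The authors trimmed reads with Trim Galore 0.6.1 after FastQC 0.11.8, aligned them to mm10 with STAR 2.5.0a and counted them with HTSeq. The deposited values are whole-number counts per gene, unnormalized, in 1 table of 54532 genes. Strand setting, counting mode, annotation release and the origin of the gene lengths are not given in the sources used here. Counts were filtered with filterByExpr (16034 genes kept), scaled by TMM and fitted with edgeR 4.0.16 (quasi-likelihood, R 4.3.3) in 1 model of 4 groups; no covariate was used. Contrasts were adjusted by Benjamini-Hochberg over all genes tested, and a call needed a fold above 2 or below 0.5 and an adjusted p under 0.05. DESeq2 1.42.0 and limma-voom 3.58.1 were alternatives. Ratios were tested by exact permutation, 2-sided (scipy). The members, lists and tests were chosen with earlier results of these data known; scaling to cardiomyocyte genes was added after the data were seen. Besides the members, the genes named are those with the 3 smallest p in each list and irradiation comparison, the 3 most alike by Spearman's rho over 14 libraries, and tissue genes of libraries that stood apart; Sln, Mybphl, Dkk3, Bmp10, Tnc, Timp1, Lgals3, Spp1, Actc1, Rcan1, Nmrk2, Fhl2, Ldb3, Myoz2 and Fbxo32 were named after their values were seen. Some genes that this rule names are not reported here. Ccn1 and Ccn2 appear under their older symbols Cyr61 and Ctgf. Replicates are separate mice. Replicate numbers did not pair libraries: libraries of the same number did not deviate together.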

Additional observations from a re-analysis of the deposited data

Results flagged for a closer look

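Of 18 sets of a member in a group of 4 libraries, 4 held a library whose gap to the nearest other library took up more of the group's range than Dixon's 95% limit, and chance gives about 1 in 20. All 4 were in IRR_6w replicate 1. Nppa, Myl4 and Myl7 were chosen with their high level in this library known, so their values are a description and not to be read against that rate. Nppa was 713 CPM there and 8.03 to 18.2 CPM in the other 3 irradiated libraries. Myl4 was 1089 CPM against at most 1.81 CPM, and Myl7 was 644 CPM against at most 2.65 CPM. Csrp3, the 1 gene that was low, was 160 CPM against 633 to 654 CPM. Beside these, the same library had 39.8 CPM of ventricular genes and 426 CPM of lung epithelial genes. Groups of 3 libraries were not examined this way; Control_1d replicate 2, unirradiated, also stood above its group in Myl4 and Myl7.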

How the results depend on the processing

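The Ankrd1 difference at 6 weeks was positive under all 29 alternatives. Without any 1 library it lay between 1.40 and 2.01. Members called at 6 weeks went from 0 to 1 (Ankrd1) with an unadjusted p, in DESeq2 on all libraries or on the 2 groups, and with cardiomyocyte scaling without the 3 libraries that stood apart (5.43%, 2.05%, 2.11% and 1.87% of all genes). Between IRR_6w and IRR_1d they went from 0 to 2 with an unadjusted p, 1 in DESeq2 on all libraries, 2 in DESeq2 on the 2 groups and 1 under that scaling (3.85%, 0.873%, 2.33% and 0.552%); for the change in effect, to 1 with an unadjusted p (2.86%). Members without overlap went to 1 at 1 day and 2 at 6 weeks under library totals (9.25% and 7.12% of all genes), and without 1 library ranged from 0 to 2 (16.3% to 32.7%) and from 1 to 2 (7.05% to 13.6%). For most of these changes the cause was not tested; the fits with libraries left out use fewer samples.

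Log2 differences that changed sign follow. Without the 2 libraries high in atrial genes, without all 3, and with cardiomyocyte scaling without the 3: at 1 day Nppa -1.23, -1.24 and -1.02, Myl4 -0.996, -0.998 and -0.82, Myl7 -0.93, -0.94 and -0.73; at 6 weeks Nppa -1.17, -0.96 and -0.29, Myl4 -5.28, -4.24 and -3.37, Myl7 -5.06, -4.01 and -3.59. Ankrd1 at 1 day was -0.010 in the first and -0.012 in the second. With the atrial sum as covariate Nppa was -0.72 at 1 day and -0.83 at 6 weeks, Myl4 -5.40 and Myl7 -4.41 at 6 weeks. With the skeletal muscle sum Nppa was -0.75 and -0.41, Myl4 -0.015 and -3.12, and Myl7 -3.87 at 6 weeks. limma-voom gave -0.54 for Acta1, -0.15 for Myl4 and -3.39 for Myl7 at 6 weeks. Without the 3 libraries with many genes at 0, Ankrd1 was -0.14 and Xirp1 -0.059 at 1 day, and Acta1 -1.34, Xirp1 -0.018 and Fhl1 -0.016 at 6 weeks. Csrp3 at 6 weeks was 0.022 under library totals, 0.027 without the 2 libraries, 0.073 with the atrial covariate, and 0.17 and 0.26 under cardiomyocyte scaling with all libraries and without 3.

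Leaving out 1 library at a time gave, at 1 day, -1.23 to 2.17 for Nppa, -0.14 to 0.47 for Ankrd1, -0.058 to 0.71 for Xirp1, -0.995 to 6.00 for Myl4 and -0.93 to 9.45 for Myl7. At 6 weeks it gave -1.16 to 3.26 for Nppa, -0.053 to 1.17 for Acta1, -0.63 to 0.029 for Csrp3, -5.27 to 3.33 for Myl4 and -5.07 to 3.49 for Myl7.

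Replicate numbers did not pair the libraries: same-numbered deviations correlated at -0.13, 0.03 and -0.06 at 1 day and at -0.36, 0.33, -0.19 and 0.03 at 6 weeks. With a replicate block, members called stayed 0, genes called at 6 weeks went from 41 to 15, and at 1 day Nppa was -0.031, Myl4 -3.04 and Myl7 -1.55. Cardiomyocyte scaling moved the median of all genes by 0.54 at 1 day and -0.14 at 6 weeks, and library totals by 0.23 at 6 weeks. Genes called at 6 weeks numbered 328 in DESeq2 and 18 in limma-voom. Ankrd2, with 0 to 9 counts per library, was too low to test. The 4 libraries with 0 to 4 counts of Myl7 held 13336746 to 16837265 counts, the range of the series, so total counts did not set them apart.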

Other observations

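Ccnd1, the cyclin of the G1 phase and the gene ranked most like Nppb, was 100, 93.4, 18.5 and 106 CPM in Control_6w and 107, 422, 489 and 575 CPM in IRR_6w. The irradiated library nearest the controls was again replicate 1, the one with atrial and lung genes. The gene was picked for its likeness to Nppb over the same 14 libraries and carries no test.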
